A study of Mus musculus with 8 samples.

Results

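The regions described here are 402 very long domains of histone H3 trimethylated at lysine 36 (H3K36me3) in C3H10T1/2 cells, mesenchymal progenitors derived from mouse embryo. They were taken from the 4999 H3K36me3 peaks of the study by position alone: a length of at least 100 kb, a place outside chromosomes 13 and 18, and no shared base with a listed peak of dimethylated lysine 36 (H3K36me2). Of the 464 peaks of at least 100 kb, 62 were left out, 14 because they lay on chromosome 13 or 18 and 48 because they met H3K36me2. The cells stably expressed a FLAG-HA-tagged histone H3.3 and were used at passages 10 to 15. In the reference group (WT) that histone was wild type, and in the other (K36M) its lysine 36 was replaced by methionine. Both groups therefore carried a tagged transgene, and cells without one are not among the samples. How the transgene was driven, and whether each line was a single clone, is not given in the sources used here. H3K36me3 was measured by chromatin immunoprecipitation and sequencing with Drosophila S2 chromatin, equal to 5% of the mouse chromatin, as an external reference (ChIP-Rx). The series holds 8 samples, 1 per group.

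H3K36me3 is written by SETD2, an enzyme that travels with elongating RNA polymerase II, so the mark lies over the bodies of transcribed genes. A long stretch of it can be the body of 1 long gene or a run of neighbouring transcribed genes. The mark is read by proteins with PWWP domains, among them the DNA methyltransferase DNMT3B, and it hinders Polycomb repressive complex 2, which writes H3K27me3. Methionine at position 36 of a minor fraction of H3 is known to inhibit SETD2 and the NSD enzymes, which write H3K36me2, also on the other H3 molecules of the cell. No gene annotation or genome sequence of the build of the files was used here, so the domains are named by position, with no gene and no sequence. Positions are on the mouse build mm9, as deposited.

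The median domain was 125.2 kb long, with quartiles of 110.4 and 146.3 kb, and the longest reached 310.8 kb. At least 150 kb were covered by 90 domains, at least 200 kb by 27 and at least 250 kb by 8. The 402 domains were 8.04% of the H3K36me3 peaks but held 23.4% of the length covered by them, 54.6 Mb. They also held 22.6% of the peak signal in WT and 21.8% in K36M. The median domain contained 5881 reads in WT and 3052 in K36M, and none had fewer than 3178 and 1177. Counting error alone would give the log2 ratio of a domain an SD of 0.03. Each genotype had 1 library, so no difference between them has a replicate check, no test was made, and the error between cultures and precipitations was not measured.

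H3K36me3 was lower in K36M than in WT in every one of the 402 domains on the spike-in scale. A domain held 1239 to 5819 normalized reads in WT, with a median of 2294, and 259 to 1944 in K36M, with a median of 672. Those ranges overlapped because the domains differ in length and level, while within each domain the K36M value was the lower one. Summed over all domains, WT had 996844 normalized reads, and K36M had 291868, or 29.3% of that. This is a 3.42-fold difference, beside 3.28-fold over all H3K36me3 peaks. The median log2 ratio of K36M to WT was −1.76 (95% binomial interval of the median over domains −1.79 to −1.75), or 3.39-fold lower, beside −1.71 (−1.72 to −1.71) over all peaks. Such an interval would hold if domains were independent draws from 1 library pair, and it says nothing of the error between cultures.

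All 402 domains (100%) were at least 2-fold lower in K36M, as were 98.5% of all H3K36me3 peaks, so that count does not set them apart. A 3-fold difference or more was reached by 342 domains, 85.1%, against a background of 70.3%, and a 4-fold one by 53 domains, 13.2%, against 9.96%. Peaks under 100 kb that met the other parts of the rule make a closer reference, since they also leave out chromosomes 13 and 18. Of those 3973 peaks, 73.3% reached 3-fold and 9.77% reached 4-fold.

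Among the peaks that met the other parts of the rule, each longer class had a slightly lower median log2 ratio. It was −1.64 in the 547 peaks under 12 kb, −1.71 in 1577 peaks of 12 to 35 kb, −1.75 in 1849 peaks of 35 to 100 kb and −1.76 in the very long domains. The step at 100 kb was thus the smallest of the 3. Within the very long domains the medians were −1.74 in the 165 domains of 100 to 120 kb (interval −1.78 to −1.70) and −1.78 in the 147 of 120 to 150 kb. They were −1.79 in the 63 of 150 to 200 kb and −1.76 in the 27 of 200 kb or more, where the interval was wide, −1.89 to −1.59. Across the 402 domains, Spearman's rho of length with log2 ratio was −0.10, as a description of domains that share the same pair of libraries. The SD of the log2 ratio was 0.34 in the peaks under 12 kb, 0.22 and 0.21 in the next 2 classes and 0.23 in the very long domains. Counting error would give 0.14 in the shortest class and 0.03 in the very long domains, where it accounts for little of the spread.

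**Figure D1:**
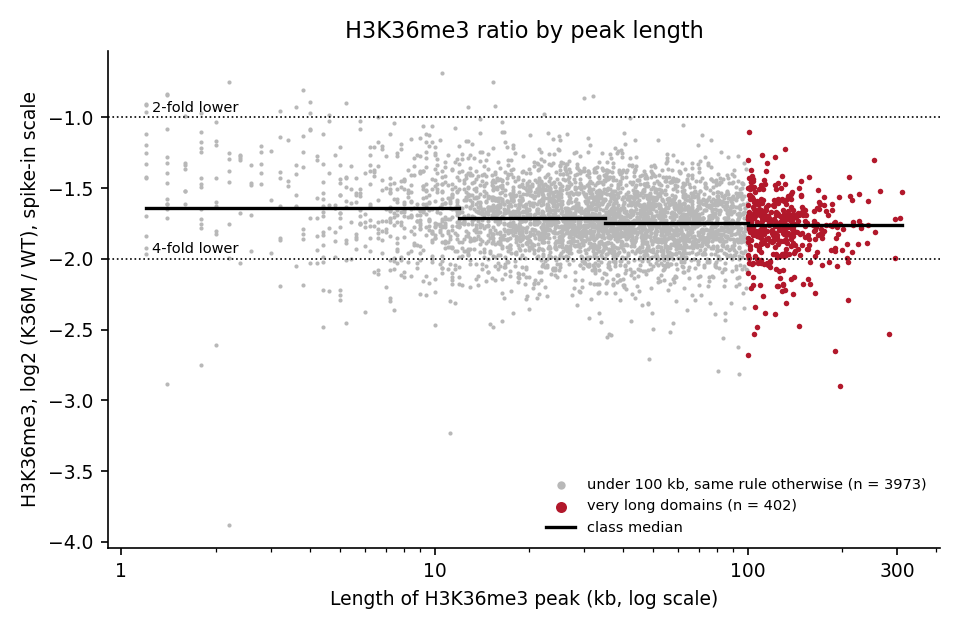
Log2 ratio of H3K36me3 in K36M to WT (vertical axis, spike-in scale) against peak length in kb (log axis). Red points are the 402 very long domains, grey points the 3973 shorter peaks that met the other parts of the rule, and black bars the class medians, which run from −1.64 under 12 kb to −1.76 at 100 kb or more. All red points lie below the 2-fold line.

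Values just inside and just outside the length threshold overlapped. The shortest members were 4 domains of exactly 100 kb, all given because they tie. At chr14:66285400-66385399, WT held 3169 normalized reads and K36M 496, a 6.39-fold difference. At chr10:3135200-3235199 the values were 1935 and 452, 4.28-fold lower. The other two lay at chr3:86877800-86977799, with 1995 and 615, and at chr8:107989600-108089599, with 1741 and 482. They were 3.24-fold and 3.61-fold lower. Just under the threshold, a 99.8 kb peak at chr10:25146000-25245799 had 2140 and 508, 4.22-fold lower. A pair of 99.6 kb peaks, at chr8:63970000-64069599 and at chr10:62385400-62484999, were 3.19-fold and 3.46-fold lower.

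Per kb, the very long domains carried slightly less H3K36me3 than the H3K36me3 peaks as a whole, in both genotypes. The median level was 17.8 normalized reads per kb in WT, with quartiles of 15.7 and 20.5, and 5.24 in K36M, with quartiles of 4.39 and 6.16. Over all H3K36me3 peaks the medians were 18.8 and 5.74, and in peaks under 12 kb that met the rest of the rule they were 21.1 and 6.91. Peaks of 35 to 100 kb by the same rule had 17.9 and 5.37, close to the levels of the very long domains. Per kb the genotypes did not overlap, but only just: the highest K36M level of the 402 domains was 10.6 and the lowest WT level 10.7. That margin is within the rounding of the spike-in factors. The order of the domains was largely shared by the genotypes, with a Spearman's rho of 0.79 between their levels per kb over 402 domains, given as a description. The domains differed more from each other in K36M. The 90th percentile was 1.91 times the 10th in K36M and 1.64 times in WT, and the SD of the log2 level was 0.36 and 0.28.

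**Figure D2:**
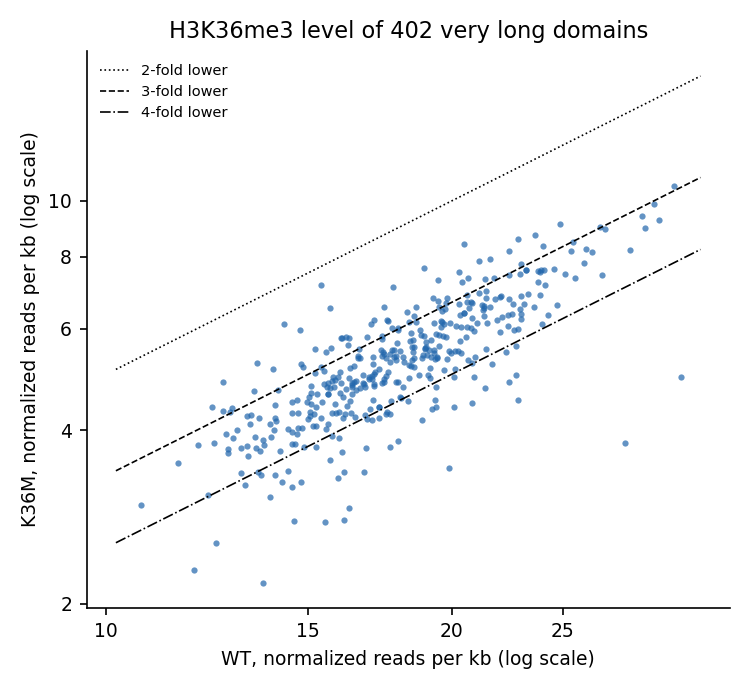
H3K36me3 level of each of the 402 very long domains in normalized reads per kb, WT on the horizontal and K36M on the vertical axis, both logarithmic. Lines mark K36M values 2-fold, 3-fold and 4-fold below WT: 342 domains lie on or below the 3-fold line, and the 2 domains far below the cloud at high WT levels are those on chromosomes 14 and 8 with the lowest ratios.

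The WT level itself had little relation to the median difference. With the domains split by WT level per kb into a low, a middle and a high class of 134 each, the log2 ratios had medians of −1.78, −1.78 and −1.73. At least 4-fold lower were 23, 16 and 14 domains of these classes (17.2%, 11.9% and 10.4%), against 9.96% of all H3K36me3 peaks. Splitting by WT, the denominator of each ratio, by itself favours lower ratios in the high class. The 4 densest domains in WT were unlike each other. The densest, the 100 kb domain on chromosome 14 named above, had 31.7 normalized reads per kb in WT and 4.96 in K36M. The next, at chr19:37969000-38116399, had 31.3 and 10.6, the highest K36M level of all the domains, and was 2.94-fold lower. A second domain of chromosome 19, from 8961600 to 9100599, had 30.3 and 9.26, and one at chr2:125119600-125230999 had 30.01 and 9.88. They were 3.27-fold and 3.04-fold lower. Domains of nearly the same WT level thus had K36M levels from 4.96 to 10.6 normalized reads per kb.

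At the other end, the domain with the lowest WT level per kb was a 172.4 kb region at chr3:30235000-30407399, with 10.7 normalized reads per kb in WT and 2.97 in K36M. It was 3.62-fold lower. A domain at chr1:140377000-140513199 had 11.6 and 3.51, and one at chr6:146251400-146375399 had 12.03 and 3.77. These were 3.29-fold and 3.19-fold lower, near the median of all domains. The remaining one, at chr7:59141000-59254399, had 11.9 and 2.28 and was 5.23-fold lower. It lay 2022 kb from the nearest other H3K36me3 peak.

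The 6 longest domains ranged from 2.88-fold to 5.78-fold lower. The longest, 310.8 kb at chr16:34062600-34373399, had a WT value of 4610 and a K36M value of 1597 normalized reads, a ratio of 0.346 (exact counting interval 0.336 to 0.357). The second, 307.2 kb at chr14:121471000-121778199, had 5391 and 1643, a ratio of 0.305 (0.296 to 0.313). Both ratios were above that of the median domain. A pair on chromosome 3, of 295.2 kb from 27313200 to 27608399 and of 294.4 kb from 55049000 to 55343399, had nearly the same WT values, 4435 and 4378. Their K36M values were 1346 and 1099, so that the ratios were 0.303 (0.294 to 0.313) and 0.251 (0.243 to 0.260). The fifth, 282 kb at chr11:21904800-22186799, had 4549 and 787, a ratio of 0.173 (0.166 to 0.180). The sixth, 265.4 kb at chr19:17031800-17297199, had 3571 and 1241, a ratio of 0.348 (0.336 to 0.359). Nearly equal WT values, 4549 and 4610, thus went with K36M values of 787 and 1597.

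Of the 4 domains with the highest WT totals, 2 are the 307.2 kb domain of chromosome 14 and the chromosome 8 domain described next. The highest total was found at chr1:33914800-34130799, with a WT value of 5819 and a K36M value of 1944 normalized reads, 2.99-fold lower. At chr11:83994200-84218999 the values were 4951 and 1333, 3.71-fold lower.

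The lowest ratios were 5.59-fold to 7.46-fold differences. The lowest belonged to a 197 kb domain at chr8:46720800-46917799, with a WT value of 5582 and a K36M value of 748 normalized reads, a ratio of 0.134 (0.129 to 0.139). The 100 kb domain on chromosome 14 followed, with a ratio of 0.156 (0.149 to 0.164). A 189.6 kb domain at chr3:113734600-113924199 had 2597 and 413, a ratio of 0.159 (0.151 to 0.167). Its K36M level of 2.18 normalized reads per kb was the lowest of all the domains, and the nearest other H3K36me3 peak was 1669 kb away. The next were a domain at chr2:109758600-109863599, with 2090 and 361, the 282 kb domain on chromosome 11, and one at chr10:109114400-109221799, with 1665 and 298. Their ratios were 0.173, 0.173 and 0.179.

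The highest ratios were 2.15-fold to 2.47-fold differences. The highest was found at chrX:148272400-148372999, with a WT value of 1548 and a K36M value of 719 normalized reads, a ratio of 0.465 (0.444 to 0.487). Only 2 of the 402 domains lay on that chromosome, with log2 ratios of −1.37 and −1.11. Its 64 shorter peaks that met the other parts of the rule had a median of −1.43, also above the −1.71 of all peaks. Next came chr7:119371000-119502399, with 1878 and 804, a ratio of 0.428, and chr1:181989000-182099999, with 1740 and 722, a ratio of 0.415. Chromosome 8 held 2 of these 6 domains, from 46025000 to 46147199 with 2503 and 1030, and from 11197200 to 11450599 with 4792 and 1941. The ratios were 0.411 (0.396 to 0.427) and 0.405 (0.394 to 0.416). The remaining one, at chr2:22632600-22732799, had 1478 and 599, a ratio of 0.405.

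Relative to the median ratio of all H3K36me3 peaks, which removes the global difference and with it the spike-in factors, the domains leaned to the lower side. A ratio below that median was found in 252 domains (62.7%), against 50% by construction over all peaks, also those the rule left out. The shorter peaks that met the other parts of the rule had a median of −1.72, itself slightly below the −1.71 of all peaks. At least 1.5-fold below the median of all peaks were 11 domains, 2.74%, against a background of 1.38%. At least 1.5-fold above it was 1, the chromosome X domain, 0.249% against 2.7%. Of the shorter peaks that met the other parts of the rule, 1.11% were as far below and 1.31% as far above. The 11 domains lay on 10 chromosomes, with 2 on chromosome 3. Most domains stayed close to the median: 324 of the 402 (80.6%) were within 1.2-fold of it, as were 76.8% of the shorter peaks.

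Between chromosomes, the median log2 ratio of the very long domains ran from −1.88 on chromosome 11 (37 domains) to −1.64 on chromosome 6 (13 domains), over the 17 chromosomes with at least 5 of them. Chromosome 15 (20 domains, −1.85), chromosome 9 (23 domains, −1.85) and chromosome 5 (32 domains, −1.83) were also on the low side. Chromosome 8 (27 domains) had −1.67, although it held the domain with the lowest ratio of all. The shorter peaks had medians of −1.82 on chromosome 11 and −1.62 on chromosome 6, and their lowest was −1.88, on chromosome 15. Set against the shorter peaks of its own chromosome, the median of the very long domains was lower on 13 of the 17 chromosomes, by a difference of −0.04 at the median. The difference was −0.15 on chromosome 19 (16 domains), where the medians were −1.81 and −1.66. At the other end it was 0.03 on chromosome 15.

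**Figure D3:**
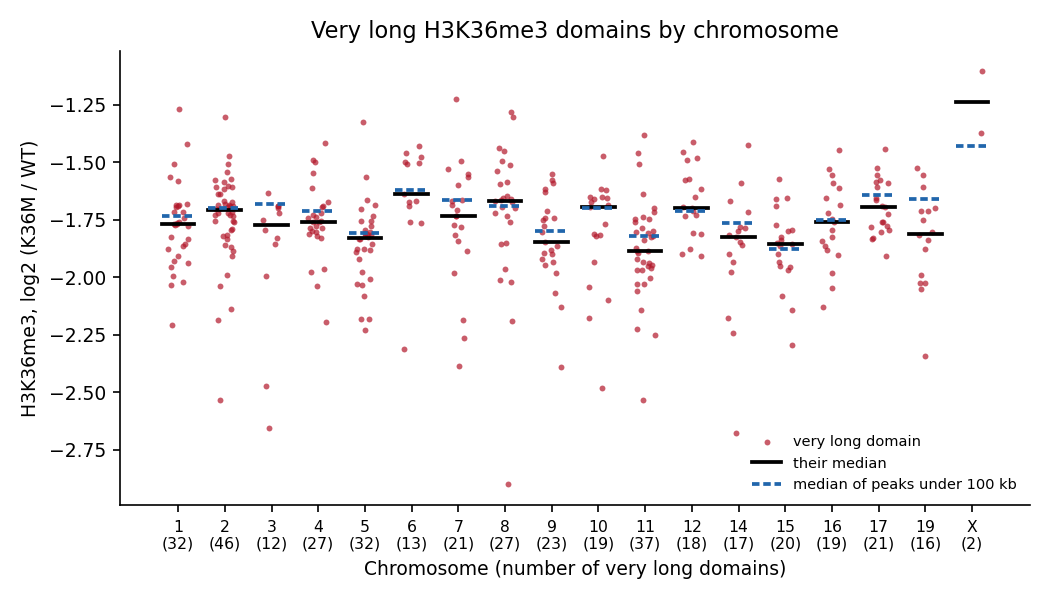
Log2 ratio of H3K36me3 in K36M to WT (vertical axis) for each very long domain (red points), by chromosome, with the number of domains in brackets. Black bars are medians of the domains, from −1.88 on chromosome 11 to −1.64 on chromosome 6 among chromosomes with at least 5, and dashed blue bars are medians of the shorter peaks of that chromosome.

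Set against the shorter H3K36me3 peak beside it, a domain had the lower ratio slightly more often than the higher one. A peak under 100 kb lay within 1 Mb of 382 domains, at a median gap of 49.9 kb and with a median length of 32.2 kb. Unlike the shorter peaks used above, these neighbours were also allowed to share bases with H3K36me2. The domain had the lower ratio in 202 of these 382 pairs (52.9%), and the median difference of log2 ratio was −0.02 (interval over pairs −0.05 to 0.01). It was 0.0061 where the neighbour had to be at least 35 kb long, which turns its sign. The pairs drew on 359 different neighbours, so a few share one. The difference within a pair, without its sign, was 0.16 at the median, and Spearman's rho between a domain and its neighbour was 0.29 over the pairs, as a description.

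**Figure D4:**
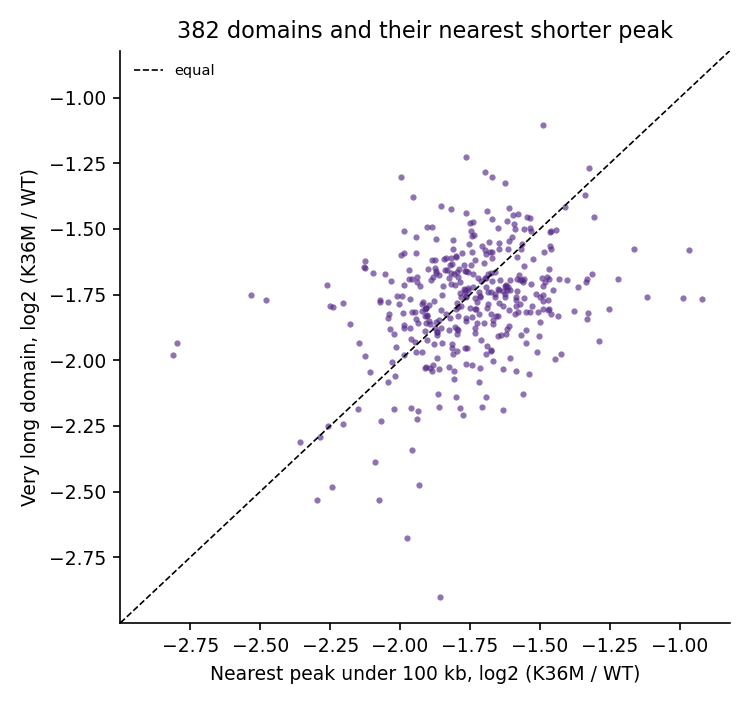
Log2 ratio of H3K36me3 in K36M to WT for 382 very long domains (vertical axis) against that of the nearest peak under 100 kb within 1 Mb (horizontal axis). The dashed line marks equal values, and 202 points lie below it, with a wide scatter on both sides.

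Nearness brought little likeness among the very long domains themselves. For 26 pairs of them less than 100 kb apart, the log2 ratios differed by 0.18 at the median. For pairs 1 to 5 Mb apart the figure was 0.16, and for pairs on different chromosomes 0.19. The examples that follow were chosen after their values were seen. On chromosome 8, the domain with the lowest ratio of all lay 573.6 kb from one of the 6 with the highest, the domain from 46025000 to 46147199, and their differences were 7.46-fold and 2.43-fold. On the same chromosome, domains from 109819200 to 109948199 and from 109962000 to 110086999 were 13.8 kb apart. Their WT values were 2663 and 2842 normalized reads and their K36M values 886 and 623, so the first was 3.00-fold lower and the second 4.56-fold.

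Some pairs with still smaller gaps also differed, and those given here were among the most unlike of the pairs within 1 Mb. On chromosome 19, domains from 3453000 to 3575599 and from 3580800 to 3686399 were 5.2 kb apart and had 22.1 and 22.8 normalized reads per kb in WT. In K36M they had 6.28 and 4.51, so they were 3.52-fold and 5.07-fold lower. On chromosome 16, domains from 91620200 to 91727399 and from 91734400 to 91875399, 7 kb apart, were 3.06-fold and 4.38-fold lower. The counting intervals of the ratios did not overlap within either pair: 0.273 to 0.296 against 0.188 to 0.207 on chromosome 19, and 0.314 to 0.341 against 0.218 to 0.240 on chromosome 16.

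H3K27me3, which the choice of the domains did not use, was seldom listed inside them. Of the 402 domains, 2 (0.498%) shared at least 1 bp with an H3K27me3 peak, against 0.92% of all H3K36me3 peaks and 0.478% of the shorter peaks that met the rest of the rule. Within 50 kb of an H3K27me3 peak were 47 domains (11.7%), against 11% of all H3K36me3 peaks. The median distance was 597.8 kb, and 559 kb for the shorter peaks. The shares were close to the background, so the very long domains were about as often near listed H3K27me3 as H3K36me3 peaks in general.

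Both overlaps were at an end of the domain. On chromosome 1, the domain with the highest WT total shared 33.6 kb, 15.6% of its length, with the H3K27me3 peak from 33870800 to 33948399. H3K27me3 there had a WT value of 692 and a K36M value of 1306 normalized reads, a ratio of 1.89 (exact counting interval 1.81 to 1.97), while H3K36me3 of the domain had a ratio of 0.334 (0.325 to 0.343). On chromosome 17, the domain from 6107600 to 6253599 shared 34 kb, 23.3% of its length, with the H3K27me3 peak from 6219600 to 6273199. In that peak WT had 514 normalized reads and K36M 570, a ratio of 1.11 (1.05 to 1.17), beside 0.310 (0.299 to 0.321) for H3K36me3. These values cover each peak from end to end, with no separate measure of the shared part.

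A further 12 domains had an H3K27me3 peak within 10 kb but no shared base. With the 2 overlaps, 14 domains (3.48%) lay within 10 kb, against 4.40% of the shorter peaks that met the rest of the rule. The H3K27me3 ratios of those 12 peaks ran from 0.658 to 1.13. Of all 14 such domains, 5 lay on chromosome 15, which held 20 of the 402 very long domains. The same count was not made for the shorter peaks, so it describes these 14 domains only. The H3K27me3 peak was higher in K36M for 5 of the 14, near the share of 37.5% over all 999 H3K27me3 peaks. H3K36me3 in the 14 domains had log2 ratios of −2.03 to −1.44, and 10 of them were above the median of all very long domains. Their median was −1.69 with a wide interval, −1.84 to −1.61. Shorter peaks within 10 kb of H3K27me3 that met the rest of the rule had a median of −1.71.

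**Figure D5:**
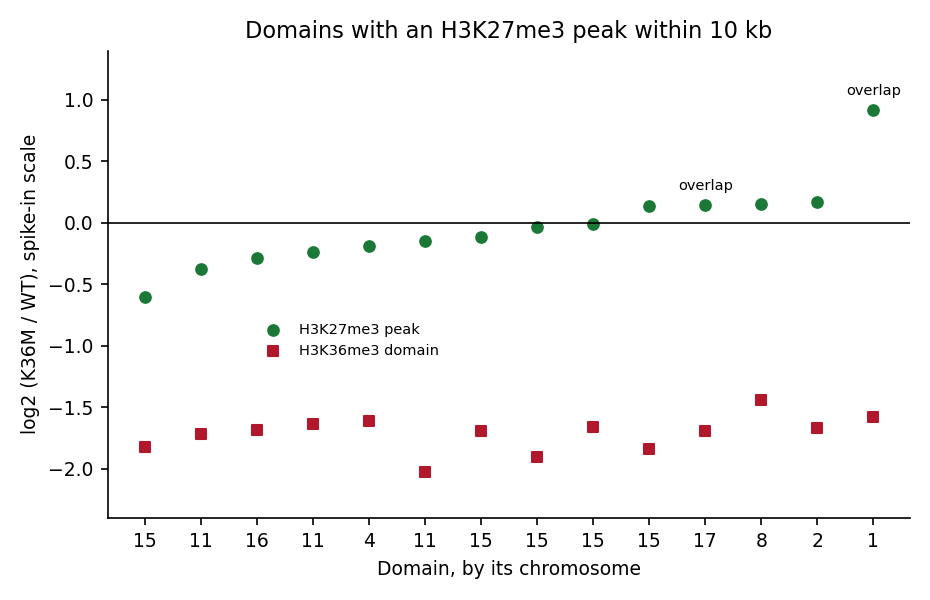
Log2 ratio of K36M to WT for the 14 very long H3K36me3 domains with an H3K27me3 peak within 10 kb (red squares) and for that H3K27me3 peak (green circles), ordered by the H3K27me3 value and marked by chromosome. The domains lie between −2.03 and −1.44, and the H3K27me3 peaks lie on both sides of 0, the highest being the overlapping peak on chromosome 1.

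Domains close to H3K27me3 had a slightly smaller median difference between the genotypes, with overlapping intervals. The median log2 ratio was −1.72 (interval −1.83 to −1.68) in the 47 domains within 50 kb and −1.77 (−1.79 to −1.75) in the other 355. Near minus far, the medians differed by 0.05, by 0.08 with a limit of 10 kb (14 domains) and by 0.02 with 200 kb. In the shorter peaks that met the rest of the rule, this difference was 0.015 at 50 kb, 0.019 at 10 kb and −0.0046 at 200 kb. The 47 domains also had more H3K36me3 per kb in WT than the 355, 20.9 against 17.6 normalized reads. The part of that level in the ratios was not tested. The 47 H3K27me3 peaks nearest to these domains had a median of −0.12 on the log2 scale (−0.19 to −0.01), and K36M was the higher value in 16 (34.0%). The other 952 H3K27me3 peaks had −0.08, with K36M higher in 37.7%.

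Listed H3K36me2 was also near some of the domains, although the rule removed every overlap. It lay within 50 kb of 67 domains (16.7%), against 12.2% of the shorter peaks that met the rule. The median was −1.80 (−1.83 to −1.75) in those 67 domains, against −1.76 (−1.78 to −1.74) in the other 335. The shorter peaks that met the rule differed alike, with −1.76 within 50 kb of H3K36me2 and −1.72 beyond. The 67 H3K36me2 peaks beside the domains had −2.01 (−2.08 to −1.91), and the other 1624 H3K36me2 peaks −2.07. The domain with the lowest H3K36me3 ratio, on chromosome 8, had a 123.4 kb H3K36me2 domain 9 kb from its end, from 46588400 to 46711799. H3K36me2 there had a WT value of 5459 and a K36M value of 1450 normalized reads, a 3.77-fold difference, which was smaller than the 7.46-fold difference in H3K36me3 next to it. Each mark has its own antibody and spike-in factors, and the error of comparing marks was not measured. The H3K27me3 peak nearest to that domain, 51.6 kb away, had a WT value of 124 and a K36M value of 143, a ratio of 1.15 (1.03 to 1.29).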

How the data were processed

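For each mark the authors deposited a list of peaks with a signal value per genotype, which counts reads normalized to the Drosophila reference, per the file headers. The submitters' processing notes name Bowtie 1.0.0 as a tool, with mm9 and dm6 as builds. How peaks were called, in which library, and how the scaling was computed: not given in the sources used here. The lists may not hold all called peaks. The 2 input libraries were not analysed here.

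Starts are multiples of 200 bp and ends fall on the last base of such windows, so adding 1 to both ends would give positions counted from 1. Length is the end minus the start plus 1, and gaps count the bases between regions. All values of a column are multiples of a common step (0.39 for H3K36me3 in WT, 0.22 in K36M), which was read as the worth of 1 read. Ratios carry exact Clopper-Pearson 95% intervals from these reads, which cover counting error only. Medians carry 95% binomial intervals from ranks. No pseudocount was used and no p-value was computed, as there is 1 library per group. The code was tested on simulated counts.

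The domains and the rules below were chosen with earlier results of these data known. Named regions were the 6 longest, the 6 lowest and 6 highest ratios, the 4 highest WT values, the 4 highest and 4 lowest WT values per kb, those sharing bases with H3K27me3 and those next to the length threshold (3 on each side, 4 where tied). Gene lists were fixed but not used, since the gene table at hand belongs to another build. Computations used Python 3.11.15, numpy 2.4.6, pandas 2.3.3, scipy 1.17.1 and matplotlib 3.10.9.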

Additional observations from a re-analysis of the deposited data

How the results depend on the processing

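The fold differences between the genotypes depend on the scaling. When WT and K36M were given the same total over all H3K36me3 peaks, the ratio of totals was 0.962 and the median log2 ratio −0.047, and 1 domain was at least 2-fold and 0 at least 4-fold lower, by construction of that scaling. Factors at the ends of their rounding range, added after the data were seen, gave ratios of 0.283 and 0.303, beside 0.293, medians of −1.81 and −1.71, and 73 and 36 domains at least 4-fold lower, beside 53. Other sets of domains have other sizes by construction. With a minimum length of 80 kb the ratio was 0.294, with 689 and 86 domains at least 2-fold and 4-fold lower. With 150 kb it was 0.288, with 90 and 12. It was 0.291 with peaks meeting H3K36me2 kept and 0.294 with chromosomes 13 and 18 kept. The domains with a mean at or above their median gave counts of 201 and 23, and levels of 20.1 and 5.83 normalized reads per kb in WT and K36M. The difference from the nearest shorter peak was 0.0061 for neighbours of at least 35 kb, and the cause was not tested. Within 10 kb of H3K27me3 were 14 domains (3.48%), and 110 (27.4%) within 200 kb. For the shorter peaks that met the rest of the rule, the shares were 4.40% and 29.0%. No paired analysis was possible because each group has 1 library with no replicate. The lower median beside all H3K36me3 peaks held its sign with minimum lengths of 80 and 150 kb and with a pseudocount, at −0.05 to −0.06. Beside the peaks under 100 kb that met the rest of the rule, the difference was −0.04. No replicate could be left out, and with at least 1177 reads per domain and library, depth limits little; variation between cultures was not measured.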

Other observations

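The 62 H3K36me3 peaks of at least 100 kb that the rule left out fell into unlike groups. The 48 that met a listed H3K36me2 peak on other chromosomes had a median log2 ratio of −1.83 (interval over peaks −1.90 to −1.75). This is 3.55-fold lower in K36M. A 4-fold difference was reached by 9 of these peaks (18.8%), beside 13.2% in the 402 domains and 9.96% over all H3K36me3 peaks. Such counts are small and sensitive to the spike-in factors, whose rounding alone moved the count of the 402 domains between 36 and 73. The 48 peaks carried more H3K36me3 per kb in WT than the 402 domains without H3K36me2, with medians of 21.8 and 17.8 normalized reads. In K36M the medians were 5.76 and 5.24. The part of chromosome in these levels was not tested. The 14 on chromosomes 13 and 18 had a median log2 ratio of −1.495 (−1.60 to −1.30), 2.82-fold lower. Of these, the 5 on chromosome 13 had −1.33 and the 9 on chromosome 18 had −1.51. Their levels per kb were 15.1 in WT and 5.87 in K36M, so WT was below and K36M above the median of the 402 domains. None of these differences has a replicate check.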
